A study of Arabidopsis thaliana with 2 samples.

Results

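Calmodulin and calcium signalling genes were followed in a list of SOG1-Myc binding peaks from Arabidopsis thaliana. They are 7 genes: the calmodulin genes CAM2 (AT2G41110), CAM3 (AT3G56800) and CAM4 (AT1G66410), the calmodulin-like genes CAM9 (AT3G51920, also CML9) and TCH3 (AT2G41100, also CML12), the kinase gene CPK7 (AT5G12480) and the calmodulin-binding transcription activator gene CAMTA2 (AT5G64220). They are 7 of 1513 gene identifiers in the list, and they are named for 7 of 778 peaks. They were chosen by the authors' calls, that is, by being named for a peak in this list, so the presence and the strength of these peaks are descriptions and were not tested.

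SOG1, short for SUPPRESSOR OF GAMMA RESPONSE 1, belongs to the NAC transcription factors and directs the plant response to DNA damage; the series asks which genes it binds. The peaks come from chromatin immunoprecipitation with sequencing (ChIP-seq), with an anti-Myc antibody, of whole Col-0 plants carrying SOG1-Myc under the SOG1 promoter. The plants were 2 weeks old, were grown in liquid medium under continuous light and received the DNA-breaking drug zeocin at 15 µM for 2 h. The transgene was carried by wild-type plants. The other library of the series, not analysed here, was made from untagged Col-0 plants labelled mock with the same antibody, although the treatment text attached to it speaks of zeocin. Each group has 1 library, so no value has a replicate error, and the parts of the tag and of the drug in these peaks cannot be told apart.

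Calmodulin is a small protein that binds calcium through EF-hand loops and then binds and alters other proteins. Calmodulin-like proteins share these loops but differ from calmodulin in sequence. Calcium-dependent protein kinases (CPKs) carry a calmodulin-like domain of their own, and CAMTA proteins are transcription factors that bind calmodulin. In plants, calcium signals of this kind follow touch, cold, salt and attack by pathogens.

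TCH3 and CAM2 shared 1 wide peak of low fold enrichment. TCH3 (TOUCH 3) was found as a gene induced by touch, and its protein has more EF-hands than calmodulin. The peak lay at chromosome 2, 17136916 to 17138451 (TAIR10, as are all positions), and held 136 reads over 1535 bp at a fold enrichment of 3.01, which is the authors' ratio and whose denominator is not stated. The authors name these 2 genes for it and no other, with TCH3 entered as ATCAL4. The peak stood high in the list by reads, at rank 130 of 778, and low by fold enrichment, at rank 740.

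Among the 80 peaks at least as long as this one, the median fold enrichment was 4.51 and the range 2.49 to 17.1, and the TCH3 and CAM2 peak ranked 68, with 12 below it. Among the 38 peaks with a read count within 10% of its own, the median was 4.65 and the range 2.72 to 11.1. Its summit, the point of highest signal, is listed 1001 bp from the start, at 65.2% of the length, against a median of 51.2% over all peaks. The offset was taken as counted from the start of the peak, which the file does not state. It exceeded the stated length at 0 of 778 peaks.

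**Figure D1:**
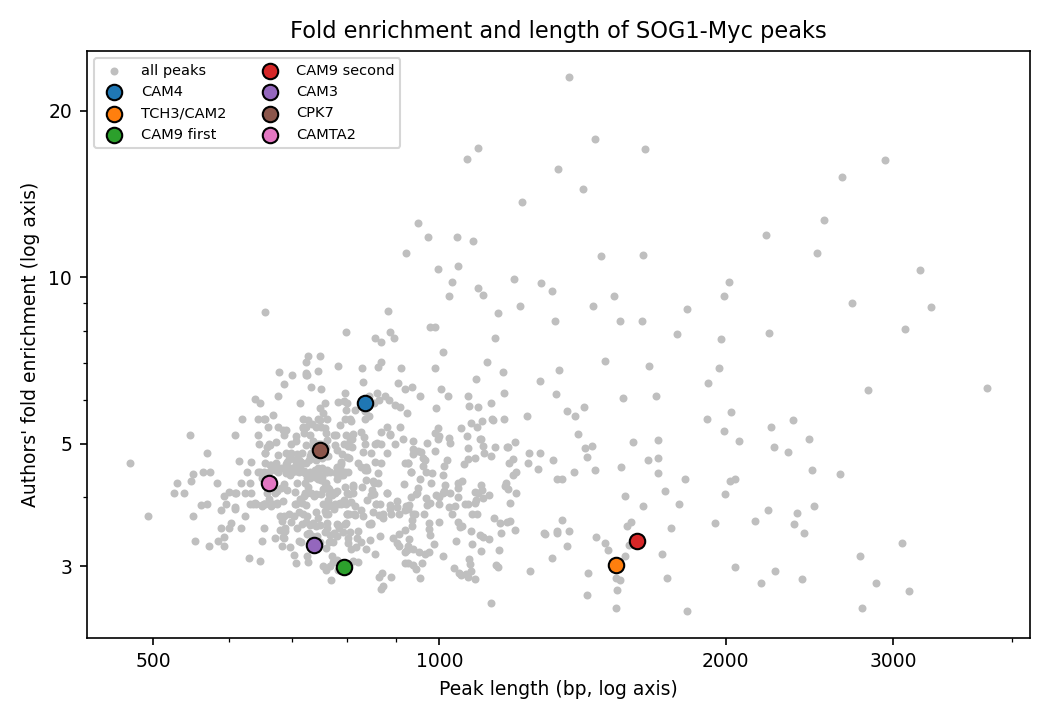
Authors' fold enrichment (vertical, log axis) against peak length in bp (horizontal, log axis) for all 778 peaks (grey) and the 7 peaks named for calcium signalling genes (coloured, 1 point per peak). The TCH3/CAM2 peak and the second CAM9 peak stand among the long peaks of low fold enrichment, at 3.01 and 3.33 (ranks 68 and 62 of the 80 peaks of 1535 bp or more), and CAM4 is the highest of the 7 at 5.93-fold.

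In the gene table, TCH3 and CAM2 stand in tandem on chromosome 2, with AT2G41105 between them and AT2G41090 and AT2G41120 as the next protein-coding loci on either side. None of these 3 loci was named for a peak. The nearest peak before the locus was 37111 bp away and was named for MYBC1 (AT2G40970) and AT2G40980, at 5.73-fold with 108 reads. The nearest peak after it was 123119 bp away and was named for AT2G41410 alone, at 4.81-fold with 103 reads. Each of the 3 nearest peaks on either side had a higher fold enrichment than the TCH3 and CAM2 peak, from 3.61 to 5.73, and each had fewer reads, from 55 to 111. Most peaks of the list would compare alike, since 38 of 778 had a lower fold enrichment than this peak and it ranked 130 by reads.

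**Figure D2:**
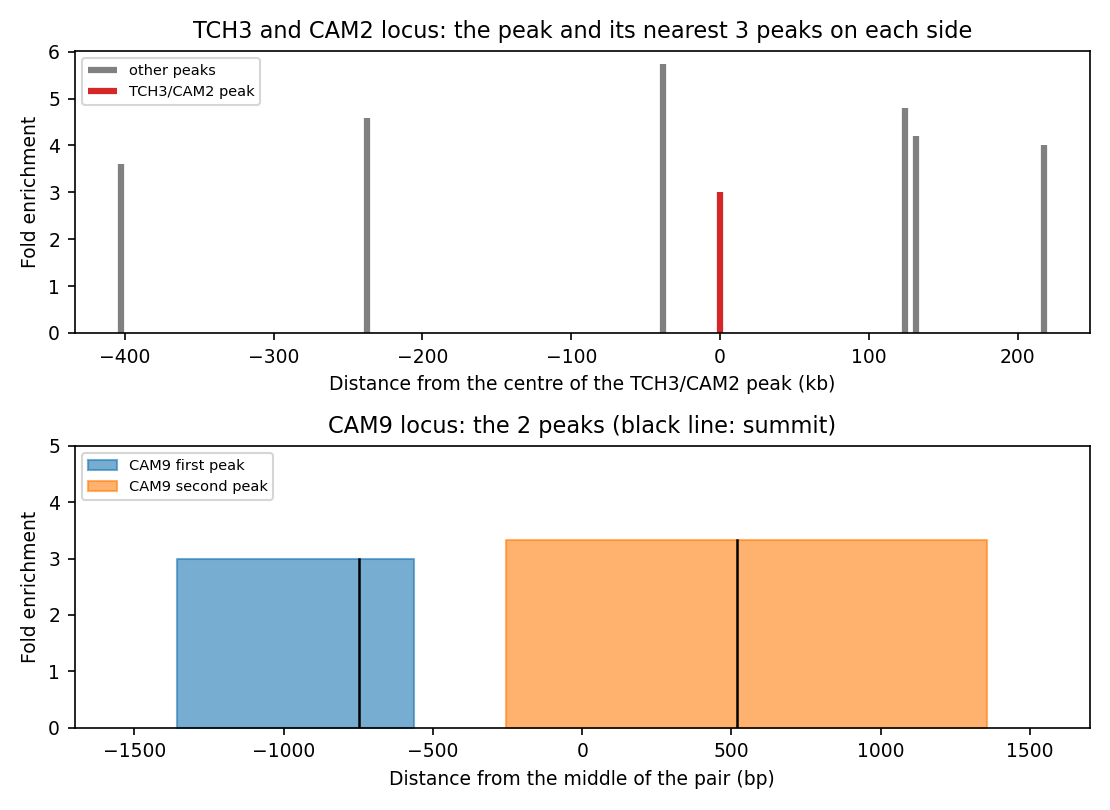
Upper panel: fold enrichment (vertical) of the TCH3/CAM2 peak (red) and the 3 nearest peaks on each side (grey) against distance in kb from the centre of the TCH3/CAM2 peak. Lower panel: the 2 CAM9 peaks drawn to scale by distance in bp from the middle of the pair, with height showing fold enrichment and a black line at each summit; the red bar is the lowest of its panel at 3.01, and the CAM9 peaks stand at 2.99 and 3.33.

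CAM9 was the only one of the 7 genes with more than 1 peak. CAM9 encodes a calmodulin-like protein linked to salt and abscisic acid responses. The first of its peaks by position, at chromosome 3, 19267647 to 19268440, held 68 reads over 794 bp at 2.99-fold. The second, at 19268747 to 19270360, held 125 reads over 1613 bp at 3.33-fold. Both peaks name the same 3 genes, CAM9, AT3G51915 and AT3G51930.

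The gap between the CAM9 peaks was 306 bp, and together they held 193 reads over 2714 bp. The list has 16 pairs of peaks with a gap under 400 bp, 11 of them with a smaller gap than this pair. The first summit lay at 76.6% and the second at 48.1% of its peak's length, so the first lay towards the gap, and the summits were 1268 bp apart. The next peak was 10723 bp beyond the pair, at 5.07-fold, and is named for AT3G51950 and AT3G51970. The peak after that, 55076 bp beyond the pair, has the highest fold enrichment of the list at 23.0. It is named for the DNA end-processing gene COM1 (AT3G52115) and also for AT3G52110 and AT3G52120.

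CAM4 had the strongest of the 7 peaks by fold enrichment and by the authors' Decibel Score, a score of unstated formula. CAM4, like CAM2 and CAM3, encodes calmodulin itself. The peak lay at chromosome 1, 24777958 to 24778791, and held 79 reads over 834 bp at 5.93-fold, rank 109 of 778, with a score of 124. It also names AT1G66430 and AT1G66440, and AT1G66420, which lies between CAM4 and AT1G66430 in the gene table, was not named. CML23 (AT1G66400), the calmodulin-like gene next to CAM4 on the other side, was not named for any peak. The nearest other peaks were 115645 bp and 631718 bp away.

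CAM3 had a weaker peak than CAM4, at chromosome 3, 21034239 to 21034977, with 59 reads over 738 bp at 3.27-fold. It ranked 694 of 778 by fold enrichment. AT3G56790 and AT3G56770 share the peak, and AT3G56780, which stands between them in the gene table, was not named. The nearest other peak, 24432 bp away, is named for AT3G56880 at 4.87-fold.

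CPK7, a calcium-dependent protein kinase, was named for a peak at chromosome 5, 4053357 to 4054105, with 60 reads over 749 bp at 4.86-fold. This peak ranked 248 of 778 by fold enrichment and 502 by Decibel Score. It also names AT5G12840, entered by the authors as HAP2A and called NF-YA1 in the gene table, a subunit of a CCAAT-binding factor, and AT5G12850. In the gene table these 3 genes are direct neighbours, with CPK7 at one end. The nearest other peaks were 98248 bp and 231632 bp away.

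CAMTA2 had the shortest peak and the fewest reads of the 7, with 54 reads over 661 bp at chromosome 5, 25685590 to 25686250. Its fold enrichment was 4.24, rank 417 of 778, and its Decibel Score of 57.5 was the lowest of the 7. The peak also names AOX2 (AT5G64210), an alternative oxidase of mitochondria, and SC35 (AT5G64200), a splicing factor. The 3 nearest peaks after it lay 14681, 15810 and 17173 bp away, at 6.02-fold, 4.56-fold and 3.60-fold. The nearest before it, 49388 bp away, is named for AT5G64050 and the NAC factor gene ANAC103 (AT5G64060), at 4.09-fold.

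CAM3, CPK7 and CAMTA2 had nearly the same read counts and different fold enrichments. The 196 peaks of the list with 54 to 66 reads had a median fold enrichment of 4.32, with a range of 2.84 to 7.21. CPK7 stood above that median, and CAMTA2 and CAM3 stood below it.

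Over all 7 peaks, fold enrichment ran from 2.99 to 5.93 with a median of 3.33, against a median of 4.33 for the 778 peaks. Fold enrichment was under the list median at 5 of the 7 and over it at those of CAM4 and CPK7. Read counts ran from 54 to 136 with a median of 68, against 75 for the list, and 3 of the 7 peaks were over that median. Lengths ran from 661 to 1613 bp with a median of 794 bp, against 837 bp, and those of TCH3 with CAM2 and of the second CAM9 peak were the 2 over it. The Decibel Score had a median of 62.3 against 77.7, with CAM4 and the second CAM9 peak over it. The FDR listed by the authors ran from 0.138 to 0.151, with 0.147 as the median of all peaks. This FDR was not always lower at stronger peaks. The peak at rank 3 by Decibel Score had an FDR of 0.667.

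Read density, the reads per kb of peak length, spread less than fold enrichment or read count. The TCH3 and CAM2 peak had 88.6 reads per kb (exact Poisson 95% interval 74.3 to 105), and the CAM4 peak had the highest density of the 7, at 94.7 (75.0 to 118). The second CAM9 peak had the lowest, at 77.5 (64.5 to 92.3). The other 4 peaks lay between 79.9 and 85.6. All 7 intervals share the range from 75.0 to 92.3 reads per kb, and differences in density among these peaks were not tested. These intervals cover counting error only, and the peak edges were themselves drawn from the reads.

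The highest density of the 7 was 1.22 times the lowest, whereas the highest fold enrichment was 1.98 times the lowest and the highest read count 2.52 times the lowest. Over all peaks the density ran from 65.7 to 269 reads per kb with a median of 88.6, and 1 of the 7, that of CAM4, was over this median. Fold enrichment over all peaks ran from 2.49 to 23.0 and read counts from 39 to 572. Density thus spread least in the whole list too, and this order is not particular to the 7 peaks. The 2 peaks with the most reads, at TCH3 with CAM2 and at CAM9, were also the 2 longest.

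**Figure D3:**
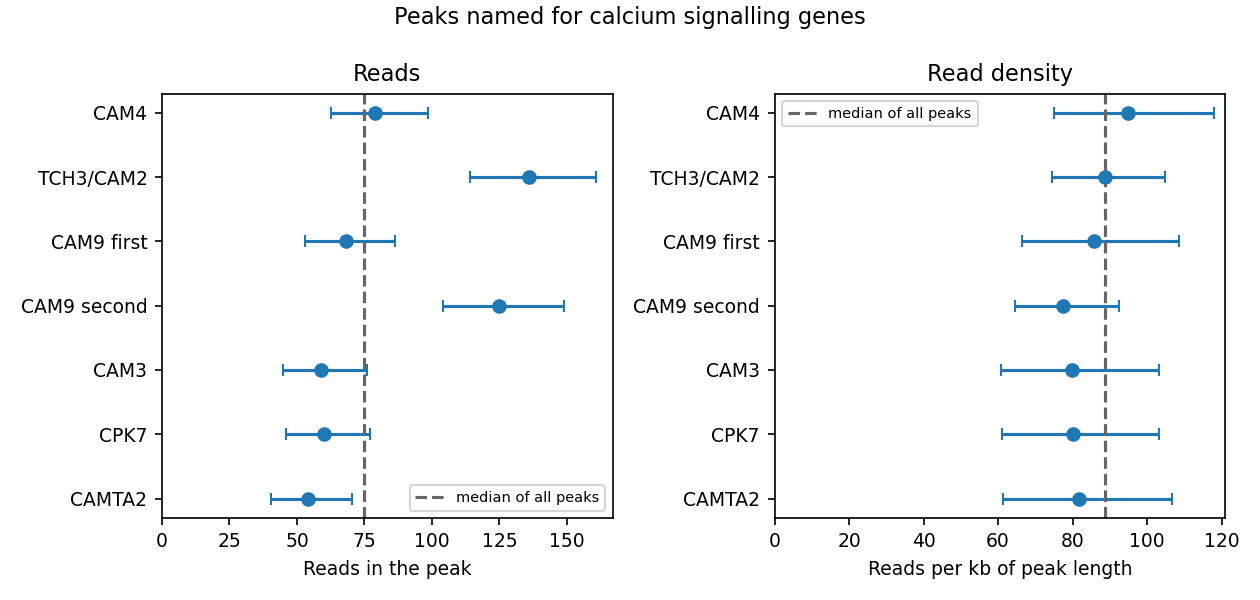
Reads (left) and reads per kb of peak length (right) for each of the 7 peaks, as points with exact Poisson 95% intervals, beside the median of all 778 peaks (dashed lines, 75 reads and 88.6 reads per kb). The TCH3/CAM2 peak and the second CAM9 peak stand apart by reads, at 136 and 125, and all 7 intervals overlap by density.

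The place of a peak in the list turned on the measure. The TCH3 and CAM2 peak stood at percentile 5.01 by fold enrichment, 28.8 by Decibel Score, 49.7 by density and 83.4 by reads. CPK7 went the other way, from percentile 68.3 by fold enrichment to 35.6 by score and 22.6 by reads. CAM3 and the first CAM9 peak were below percentile 50 by each of these 4 measures, as was CAMTA2, and CAM4 was above it by each.

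**Figure D4:**
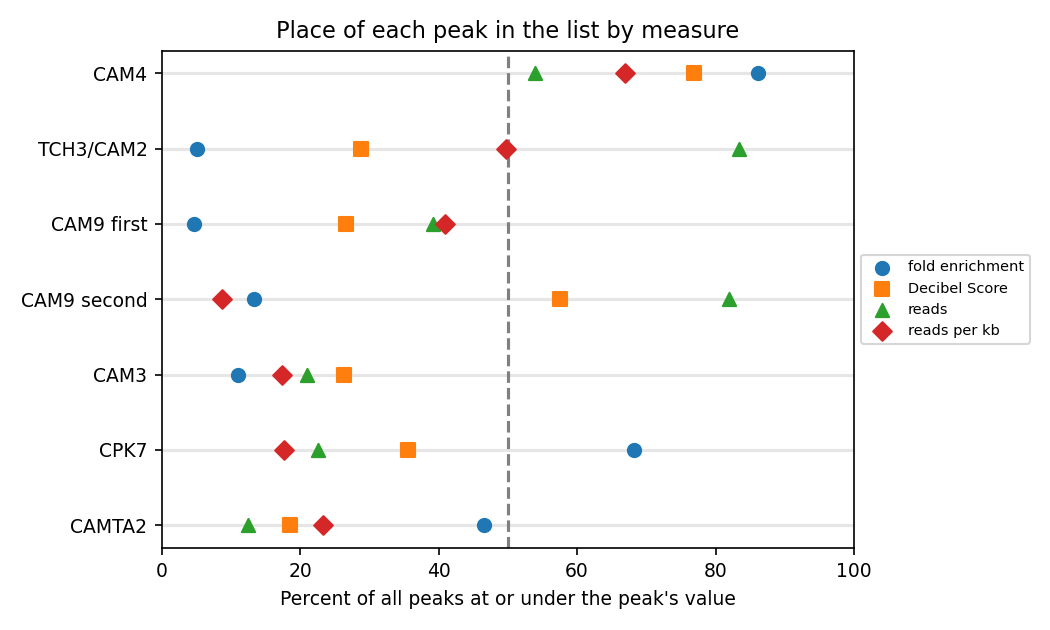
Percent of all 778 peaks with a value at or under that of each of the 7 peaks (horizontal), for fold enrichment, Decibel Score, reads and reads per kb (marker shapes), with a dashed line at the middle of the list. CAM4 lies right of the line by all 4 measures, and the TCH3/CAM2 peak runs from 5.01 by fold enrichment to 83.4 by reads.

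Each of the 7 genes shares its peaks with other named genes, so the list does not tell which gene a peak belongs to. The 7 peaks name 10 further genes, 9 of them protein-coding loci of the gene table. The TCH3 and CAM2 peak names 2 genes and each of the others names 3. In the whole list, 544 peaks name 2 or more genes, 199 name 1 and 35 name none.

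The 7 genes were also set among members of their families, in lists written from general knowledge of the pathway. The lists are partial and leave out some calcium genes with a peak. Those found by a search of gene names are given below, and calcium genes without such a name may be missed. The counts are therefore of listed genes, not of whole families. Of 27444 nuclear protein-coding loci, 1369 were named for a peak, or 4.99%. Of 7 calmodulin genes 3 were named, CAM2, CAM3 and CAM4, and CAM1, CAM5, CAM6 and CAM7 were not. Of 11 listed calmodulin-like genes 2 were named, CAM9 and TCH3, and the 9 without a peak include TCH2, another touch-induced gene. CAMTA2 was the 1 named of 3 CAMTA genes, and CAMTA1 and CAMTA3 were not named. The written CAMTA list held 3 further loci, left out of this count because the gene table gives them no family name, and 1 of these, AT1G67310, was named for a peak of 3.57-fold. These shares contain the genes chosen for having a peak, so nothing is read from them against the background.

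Of 34 CPK genes 2 were named, CPK7 and CPK32. Leaving out CPK7, which was chosen for its peak, 1 of 33 was named, or 3.03%, beside 4.99% of all protein-coding loci. CPK32 (AT3G57530) had a peak of 4.31-fold with 72 reads at chromosome 3, 21303016 to 21303796, shared with AT3G57540 and AT3G57550. None of 10 listed calcineurin B-like (CBL) calcium sensor genes and none of 13 listed calcium pump, exchanger and channel genes was named. ECA2 (AT4G00900), a calcium pump gene outside that list, was named for a peak of 4.25-fold. In all, 8 of 78 listed genes were named, the 7 chosen ones and CPK32. At the 389 strongest peaks by fold enrichment, CAM4 and CPK7 were the 2 named, where 2.51% of protein-coding loci were named. At the 389 strongest by Decibel Score the 2 were CAM4 and CAM9, again with 2.51% of protein-coding loci named. CAM4, CPK7 and CAM9 were chosen for having a peak, so nothing is read from these counts against the background. At the 199 peaks that name a single gene, 0 of the 78 were named, beside 0.66% of protein-coding loci; AT1G67310, left out of the 78, is the only gene named at its peak.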

How the data were processed

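The deposited file is a list of peaks in 1 of the 2 libraries. Per the labels, the build is TAIR10, and the submitters' processing notes name CASAVA 1.8.2. The aligner, peak caller, control, thresholds and rule for naming genes are not stated in any source used here. Per the file headers, the authors give a count of reads per peak, not scaled, a fold enrichment (a ratio), a Decibel Score (a score) and an FDR (read as a q-value). The depth of the library is unknown.

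The 1645 lines, 1 per peak and gene, were collapsed to 778 peaks by position. Stated lengths equal end minus start at some peaks and 1 bp more at others, so edges and gaps are uncertain by 1 bp. Ranks, percentiles and reads per kb were computed with Python 3.11.15, pandas 2.3.3 and scipy 1.17.1, after the steps were checked on a simulated list. Gene names and gene order came from a RefSeq table of assembly TAIR10.1, which holds 1483 of the 1513 identifiers. Its start positions were used only to put the genes in order, and none of them is given here. Of 82 loci in the family lists, 78 carry the listed name there as symbol or synonym (CAMTA2 as a synonym) and were counted; the other 4 are kept apart. The genes and lists were chosen with earlier results of these data known. Genes named are the 7, the others at their peaks, listed genes with a peak and the genes of neighbouring peaks. No test was run, since there is 1 library and the genes were chosen from its peaks. No sequence was used here, so planned searches of promoters for the SOG1 motif and comparisons of protein sequence were not run.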

Additional observations from a re-analysis of the deposited data

How the results depend on the processing

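The count of listed calcium genes with a peak, 8 of 78, fell to 2 at the 389 strongest peaks by fold enrichment, to 2 at the 389 strongest by Decibel Score and to 0 at peaks naming 1 gene, each of which uses fewer peaks by construction. With all 82 written loci, added after seeing the data, it was 9, and 1 at peaks naming 1 gene (AT1G67310). With the 147 protein-coding loci whose table names hold a calcium word, a choice made after seeing the data, it was 12. The median percentile of the 7 peaks, 13.2 by fold enrichment, was 28.8 by Decibel Score, 39.2 by reads and 23.3 by reads per kb; the cause was not tested. Of 21 percentiles of single peaks under these 3 rankings, 11 were higher than the percentile by fold enrichment and 10 lower. The peak nearest to the TCH3 and CAM2 locus was 37111 bp away among all peaks and, in an alternative added after seeing the data, also among the 389 strongest by fold enrichment. The promoter motif and protein identity results, with their alternatives, were not run. No paired analysis was possible because each group has 1 library and no result comes from a test. Since the depth of the library is unknown, a listed gene with no peak may lie under the limit of detection.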

Other observations

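CP1, SIP4 and NTL9, other genes tied to calcium, had longer peaks of higher fold enrichment than any of the 7 peaks. They were found by searching the gene table for names that hold a calcium word, a search made after the values were seen, and 12 of its 147 protein-coding loci were named for a peak. Without the 7 genes, which were chosen for having a peak, 5 of 140 were named (3.57%), beside 4.99% of all protein-coding loci; CPK32 is 1 of the 5. CP1 (AT5G49480), a calcium-binding protein, had an 8.99-fold peak with 493 reads over 2718 bp at chromosome 5, 20069337 to 20072055, shared with AT5G49490. SIP4 (AT2G30360), a kinase that works with CBL calcium sensors, had an 8.07-fold peak with 521 reads over 3092 bp at chromosome 2, 12936859 to 12939951, shared with AT2G30350 and AT2G30362.

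NTL9 (AT4G35580), a calmodulin-binding NAC transcription factor, had a 6.44-fold peak with 337 reads over 1916 bp, shared with 4 other genes. These 3 peaks held 168 to 181 reads per kb, against 77.5 to 94.7 for the 7 peaks above. ECA2 (AT4G00900), a calcium pump of the endoplasmic reticulum type, had a 4.25-fold peak with 72 reads at 83.5 reads per kb. AT1G67310, 1 of the 4 listed loci that the gene table leaves without a name, was the only gene named for a peak of 3.57-fold with 61 reads at chromosome 1, 25202915 to 25203644.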
